A study of Mus musculus with 6 samples.

Results

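The genes described here are the matrix metalloproteinases (MMPs), the ADAMTS enzymes and the tissue inhibitors of metalloproteinases (TIMPs) of the mouse spleen, measured 24 h after total body irradiation. They were taken by name, as every gene on the array whose symbol is Mmp, Adamts or Timp followed by its number, with Mmp8 and Mmp9 left out. This gave 44 genes of the 34741 on the array, namely 21 Mmp, 19 Adamts and 4 Timp genes, read by 64 distinct probe sequences on 73 spots. RNA was hybridised to 6 Agilent arrays in a single dye, 3 from mice that had received 900 cGy of X-rays to the whole body 24 h before harvest and 3 from resting mice given 0 cGy. All mice were of B10.BALB-16.C2A, a congenic strain, and each array carried spleen RNA pooled from 3 mice, so the spread between arrays is that between pools. The labels used here give neither age nor sex. The question was which of these genes differ in irradiated spleens.

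MMPs are zinc-dependent proteinases, secreted or held at the cell surface, that cut collagens, laminins, proteoglycans and many signalling proteins. Most are made as inactive proenzymes that plasmin, furin-like convertases or other MMPs activate. ADAMTS enzymes are secreted relatives that carry thrombospondin repeats and trim procollagens, cut proteoglycans or cleave von Willebrand factor. TIMPs bind the active site of these enzymes and block it. In the spleen the substrate is the reticular fibre network that fibroblastic stroma builds around the white pulp and through the red pulp, while macrophages and granulocytes also make some of the enzymes.

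On each array the scanner software marked between 39031 and 41261 probes as well above background, and none as saturated. Values below are log2 signals with the log2 of that array's 75th percentile subtracted, so that a signal equal to that percentile has the value 0. They can be compared between arrays for a given probe, not between probes. A gene was tested if either group had its brightest probe well above background in all 3 pools. The unirradiated arrays held the signature of spleen, with the marker genes of B cells, T cells, macrophages and red cell precursors well above background on all 3. On the irradiated arrays the markers of exocrine pancreas, adipocytes and mesothelium were higher than on the unirradiated ones, as given below.

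Most of these genes were higher in irradiated spleens. Of the 36 members tested, 27 were higher, 1 was lower and 8 did not pass an adjusted p of 0.05 (limma, Benjamini-Hochberg over all 26639 genes tested, n = 3 pools per group). Over all genes tested, 28.3% were higher and 31% were lower. The median log2 change was 1.21 for the members and -0.06 for all genes tested. A change of at least 2-fold was found for 23 higher members and 1 lower member. When arrays were scaled to their spike-in controls, 14 were higher and 2 lower by that much. The share of all genes tested with such a change was not counted, so these counts have no background to be read against. On all 28 members past the threshold, the 3 irradiated arrays lay on 1 side of the 3 unirradiated ones. That share was not counted over all genes past the threshold, so it says nothing particular about the members. The arrays lay on 2 rows of 1 slide, with irradiated replicates 2 and 3 on a row of their own, and 24 members were higher and 2 lower with the slide row as a block. Over all genes tested, 21.3% were higher and 23.6% lower with the block. Within the row that held both groups, 1 irradiated and 3 unirradiated arrays, the median log2 change was 1.20 for the members and -0.10 for all genes. With spike-in scaling the median of all genes moved to -0.34, and 18% of all genes were higher and 40.8% lower. At that setting 26 members were higher and 3 lower, with a members' median of 0.92.

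**Figure D1:**
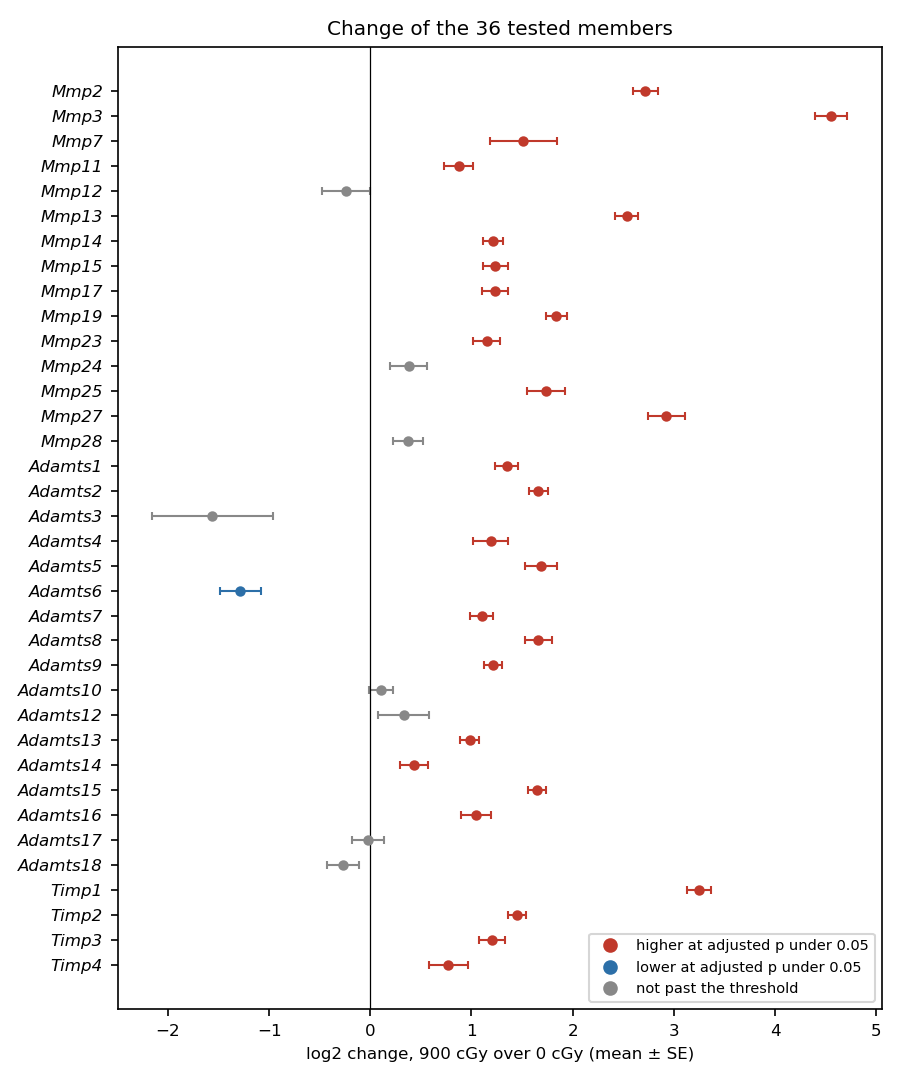
Log2 change of each of the 36 tested members, 900 cGy over 0 cGy, with its standard error (n = 3 pools per group). Points right of the line at 0 were higher in irradiated spleens. Mmp3 lies farthest to the right at 4.56 and Timp1 follows among the inhibitors at 3.25, while Adamts6 is the member past the threshold on the left, at -1.28.

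All 4 inhibitors rose. Timp1, a secreted inhibitor of most MMPs, is read by a probe on the X chromosome at chrX:20451802-20451861 of mm9, plus strand, shown here because it had the largest change among the inhibitors.
Timp1: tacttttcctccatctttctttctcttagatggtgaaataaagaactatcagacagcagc
Its values were 3.58, 3.32 and 3.30 on the irradiated arrays and 0.06, 0.10 and 0.29 on the unirradiated arrays. The groups lay far apart, and Timp1 was 9.51-fold higher (log2 change 3.25 ± 0.12 SE, limma adjusted p = 5.06e-05). Timp2, which inhibits MMPs and also takes part in activating the Mmp2 proenzyme at the cell surface, had 7.09, 7.06 and 7.11 on the irradiated arrays and 5.53, 5.64 and 5.76 on the unirradiated arrays. It was 2.73-fold higher (log2 change 1.45 ± 0.09 SE, limma adjusted p = 7.66e-05), and its other probe gave a log2 change of 1.95. Timp3, which binds to the matrix and blocks ADAMTS enzymes as well as MMPs, had 4.50, 4.47 and 4.43 on the irradiated arrays and 3.15, 3.11 and 3.53 on the unirradiated arrays. The irradiated arrays lay close together and above every unirradiated one (2.30-fold higher, log2 change 1.20 ± 0.13 SE, limma adjusted p = 0.00041). Timp4, the inhibitor with the most restricted tissue distribution, was dim, at -4.16, -3.59 and -3.88 on the irradiated arrays and -4.91, -4.39 and -4.65 on the unirradiated arrays. The groups lay close together without overlap (1.71-fold higher, log2 change 0.77 ± 0.19 SE, limma adjusted p = 0.0128). The call for Timp4 was lost with the slide row as a block and within the row that held both groups, where adjusted p reached 0.199.

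Timp1, Timp3 and Timp4 each lie within the bounds of a synapsin gene in the RefSeq annotation of GRCm38.p6, a nested arrangement conserved in vertebrates. The synapsins are coats of synaptic vesicles. These host genes were looked up after the values of the inhibitors were known, and their roles are given for background only. Syn1, the host of Timp1, had a mean of 0.06 on the irradiated and -2.60 on the unirradiated arrays (log2 change 2.66, limma adjusted p = 5.06e-05). Syn3, the host of Timp3, had -2.71 on the irradiated and -4.08 on the unirradiated arrays (log2 change 1.37, limma adjusted p = 0.000605). Syn2, the host of Timp4, had -2.37 on the irradiated and -3.83 on the unirradiated arrays (log2 change 1.47, limma adjusted p = 7.69e-05).

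Of the 14 secreted MMPs, 9 were tested, and 7 of these rose while 2 did not pass. Mmp3 had the largest change of all members. It encodes stromelysin, which cuts proteoglycans, fibronectin and laminin and activates other MMP proenzymes. Its probe lies at chr9:7455751-7455810 of mm9 on the plus strand.
Mmp3: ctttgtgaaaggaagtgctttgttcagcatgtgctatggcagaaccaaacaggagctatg
Mmp3 had 2.48, 2.01 and 2.49 on the irradiated arrays and -2.37, -2.11 and -2.19 on the unirradiated arrays. It was above the level of the 75th percentile on every irradiated array and below it on every unirradiated one (23.5-fold higher, log2 change 4.56 ± 0.16 SE, limma adjusted p = 5.06e-05).

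Mmp2, the gelatinase that cuts collagen of basement membranes, had 2.65, 2.73 and 2.48 on the irradiated arrays and 0.11, -0.22 and -0.17 on the unirradiated arrays. It was 6.58-fold higher (log2 change 2.72 ± 0.12 SE, limma adjusted p = 5.48e-05). Mmp13, the main collagenase of rodents for fibrillar collagens, had -0.88, -0.83 and -0.83 on the irradiated arrays and -3.16, -3.49 and -3.50 on the unirradiated arrays. The irradiated pools were almost identical, and the change was 5.80-fold (log2 change 2.54 ± 0.11 SE, limma adjusted p = 5.48e-05). Mmp27, whose substrates are little known, had -1.50, -1.44 and -1.29 on the irradiated arrays and -4.08, -4.18 and -4.74 on the unirradiated arrays. It was 7.59-fold higher by its brightest probe (log2 change 2.92 ± 0.18 SE, limma adjusted p = 7.88e-05), and its other probe gave a log2 change of 1.30. With normexp background correction, run with an offset of 50, the change of Mmp27 was 4.01-fold. Mmp19, an MMP of basement membranes and blood vessels, had -2.34, -2.24 and -2.24 on the irradiated arrays and -4.20, -3.93 and -4.19 on the unirradiated arrays. The pools of each group lay close together (3.58-fold higher, log2 change 1.84 ± 0.10 SE, limma adjusted p = 6.46e-05), or 2.31-fold with normexp background correction. Mmp7, matrilysin, the small MMP that lacks the hemopexin domain and is known from epithelia, had -2.98, -2.66 and -2.33 on the irradiated arrays and -4.87, -3.66 and -3.98 on the unirradiated arrays. Its spread between pools was wider than that of the other secreted MMPs that rose (2.85-fold higher, log2 change 1.51 ± 0.33 SE, limma adjusted p = 0.00783). Its call was lost with the slide row as a block and within the row that held both groups, where adjusted p reached 0.127. Mmp11, a stromelysin that furin activates inside the cell, was 1.83-fold higher (log2 change 0.87), a call lost within the row that held both groups (limma adjusted p = 0.0563).

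The secreted MMPs that did not pass were Mmp12, the elastase of macrophages, with a log2 change of -0.24, and Mmp28, epilysin, with 0.37. Mmp28 passed as higher under 3 of 20 other processing choices, and its other probe, too dim for the background filter, gave a difference of 1.04. For Mmp12 the values were -5.74, -5.32 and -4.87 on the irradiated arrays and -5.24, -5.14 and -4.82 on the unirradiated arrays, so the groups overlapped. Of the other 5, Mmp1a, Mmp1b, Mmp20, the enamel proteinase of teeth, and Mmp21 were well above background on none of the arrays. Mmp10 was well above background on 1 of 3 arrays in each group.

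**Figure D2:**
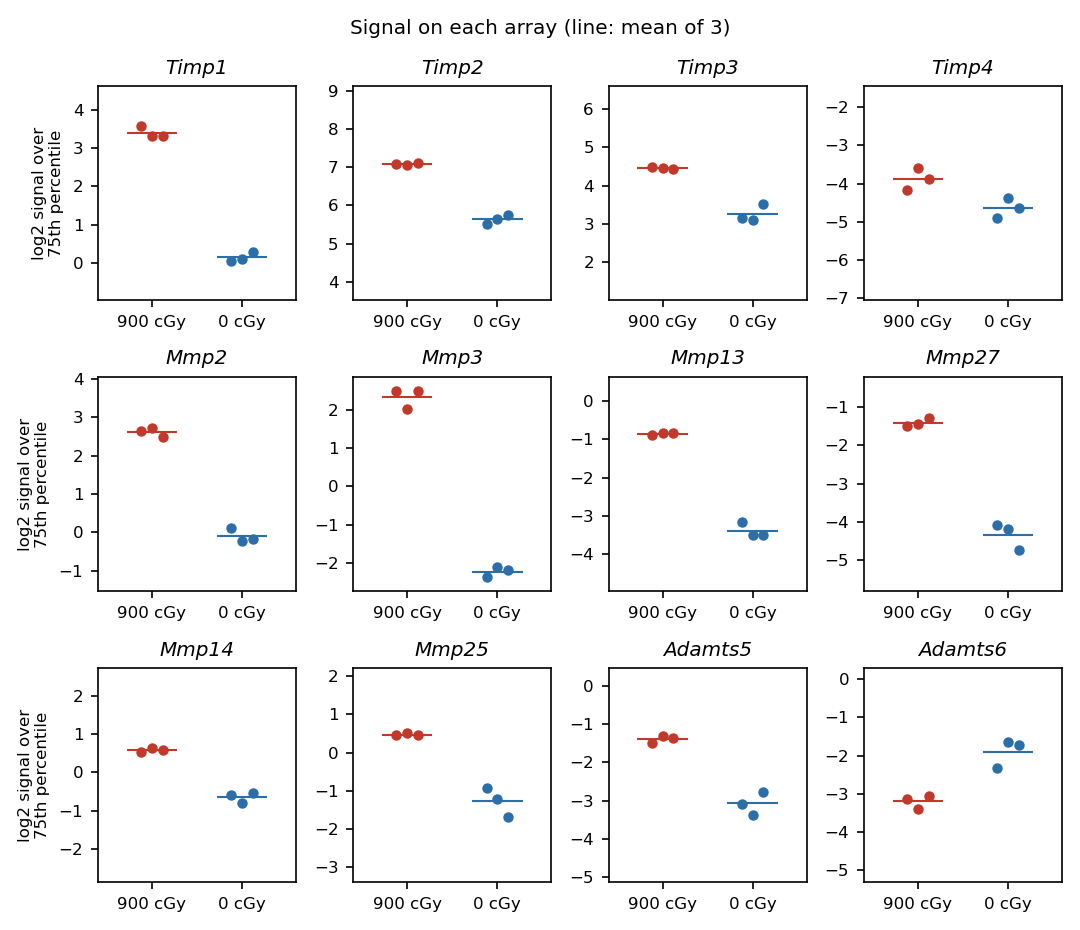
Log2 signal over the 75th percentile on each array for the 4 inhibitors, 4 secreted MMPs, Mmp14, Mmp25 and 2 ADAMTS enzymes, with 900 cGy left of 0 cGy and the mean of 3 pools as a line. Every panel spans the same range of log2 units, so the gap between groups can be compared: it is widest for Mmp3 at 4.56, and in the Adamts6 panel the irradiated arrays lie below the unirradiated ones.

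Among the 7 MMPs anchored in the cell membrane, 6 were tested and 5 rose, by log2 changes between 1.15 and 1.74. Mmp25, which a lipid anchor holds at the surface and which is known from leukocytes, changed most, with 0.45, 0.50 and 0.46 on the irradiated arrays and -0.91, -1.20 and -1.68 on the unirradiated arrays. It was 3.33-fold higher (log2 change 1.74 ± 0.19 SE, limma adjusted p = 0.000453), and the spread lay in the unirradiated pools. Mmp15, a transmembrane MMP, had -1.58, -1.80 and -2.00 on the irradiated arrays and -3.10, -2.99 and -2.98 on the unirradiated arrays, with no overlap (2.35-fold higher, log2 change 1.23 ± 0.12 SE, limma adjusted p = 0.000304). Mmp17, also held by a lipid anchor, was 2.35-fold higher, and Mmp23, whose catalytic part is shed by furin, was 2.22-fold higher. Mmp14, the membrane enzyme that activates the Mmp2 proenzyme together with Timp2, was 2.32-fold higher, so Mmp14, Mmp2 and Timp2 were all higher. Mmp24, known from neurons, did not pass (log2 change 0.38, limma adjusted p = 0.12), and its other probe gave -0.29. Mmp16 was well above background on none of the arrays.

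ADAMTS enzymes that cut proteoglycans such as versican and aggrecan were mostly higher. No role group used here was planned beforehand, and this one was drawn up from the enzymes' known substrates after the values had been seen. Of its 7 members, 6 were tested and all 6 were higher by their brightest probe, between 1.19 and 1.68 on the log2 scale, but Adamts8 had a second probe called lower. Adamts5, the main aggrecan-cutting enzyme of mouse cartilage, had -1.49, -1.30 and -1.36 on the irradiated arrays and -3.07, -3.37 and -2.77 on the unirradiated arrays. It was 3.21-fold higher (log2 change 1.68 ± 0.16 SE, limma adjusted p = 0.000253), and its other probe gave 1.45. Adamts15 had -0.47, -0.70 and -0.62 on the irradiated arrays and -2.23, -2.26 and -2.26 on the unirradiated arrays, where the pools were almost equal. Its change was 3.14-fold (log2 change 1.65 ± 0.09 SE, limma adjusted p = 6.23e-05). Adamts1, which cuts versican and is needed for ovulation, had 0.61, 0.61 and 0.62 on the irradiated arrays and -0.96, -0.69 and -0.56 on the unirradiated arrays. The irradiated pools were almost equal, and Adamts1 was 2.54-fold higher (log2 change 1.35 ± 0.12 SE, limma adjusted p = 0.000183). Adamts9 had 0.13, 0.12 and 0.06 on the irradiated arrays and -1.13, -1.22 and -0.99 on the unirradiated arrays (2.32-fold higher, log2 change 1.21 ± 0.09 SE, limma adjusted p = 0.000117). Adamts4 had -0.30, -0.82 and -0.56 on the irradiated arrays and -1.70, -1.56 and -1.99 on the unirradiated arrays (2.28-fold higher, log2 change 1.19 ± 0.17 SE, limma adjusted p = 0.00135). The other probes of Adamts9 and Adamts4 were higher as well, by 1.52 and 1.50. Adamts20 was well above background on none of the arrays. Adamts1 and Adamts5 are next to each other on chromosome 16, and so are Adamts15 and Adamts8 on chromosome 9, with no coding gene between.

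Adamts8, the last enzyme of that group, had probes that went opposite ways. Both lie on chromosome 9 of mm9 on the plus strand, with starts 19334 bases apart, and they are shown because the call for this gene depends on which is read. The first is at chr9:30770384-30770443 and the second at chr9:30751050-30751109.
Adamts8 first probe: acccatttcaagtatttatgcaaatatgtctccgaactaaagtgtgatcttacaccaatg
Adamts8 second probe: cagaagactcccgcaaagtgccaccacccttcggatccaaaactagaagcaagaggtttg
The first probe, the brighter over all arrays, had 0.13, -0.14 and 0.04 on the irradiated arrays and -1.87, -1.64 and -1.45 on the unirradiated arrays (3.16-fold higher, log2 change 1.66 ± 0.14 SE, limma adjusted p = 0.000151). The second had -3.47, -3.38 and -3.46 on the irradiated arrays and -0.79, -1.14 and -2.16 on the unirradiated arrays, a difference of -2.07 (limma adjusted p = 0.00213 with each probe fitted on its own). Both were well above background on all 6 arrays. With the mean of the probes the change of Adamts8 was -0.205 and did not pass, and without Adamts8 the count of higher members is 26. Of the 12 members with at least 2 probes that passed the background filter, 9 had probes of the same sign and Adamts8 was the only 1 called in opposite directions. The other 2, Mmp24 and Adamts14, had probes that differed in sign without opposite calls.

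**Figure D3:**
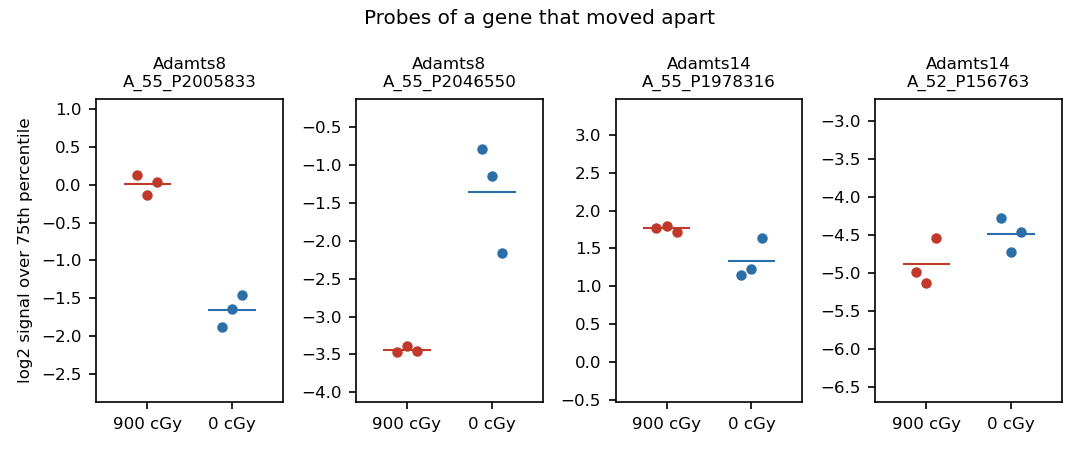
Log2 signal over the 75th percentile on each array for the probes of Adamts8 and Adamts14, with 900 cGy left of 0 cGy and the mean of 3 pools as a line. The irradiated arrays lie above the unirradiated ones for the first Adamts8 probe (log2 difference 1.66) and below them for the second (-2.07), and for Adamts14 the difference is 0.43 and -0.40.

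The procollagen N-proteinases, which remove the amino-terminal propeptide of fibrillar collagens, had mixed calls. Adamts2, the main enzyme of this kind, had 3.39, 3.32 and 3.27 on the irradiated arrays and 1.63, 1.56 and 1.81 on the unirradiated arrays. It was 3.16-fold higher (log2 change 1.66 ± 0.10 SE, limma adjusted p = 6.83e-05), and its other probe gave 0.74. Adamts14 passed with a log2 change of 0.43 (limma adjusted p = 0.0365), but its call was lost under 11 of 20 other processing choices, and its other probe gave -0.40 (limma adjusted p = 0.121). Adamts3 had -7.48, -5.28 and -5.71 on the irradiated arrays and -4.24, -4.32 and -5.23 on the unirradiated arrays. That probe was well above background on 2 of the 3 irradiated arrays, and its log2 change of -1.56 ± 0.59 SE did not pass (limma adjusted p = 0.061). It passed as lower under 8 of 19 other choices, but the other probe of Adamts3, which was too dim for the background filter, gave a difference of 0.02.

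Adamts6 was the member that fell. It belongs to the ADAMTS enzymes that act on fibrillin microfibrils, as does Adamts10. Its probe lies at chr13:105284737-105284796 of mm9 on the plus strand.
Adamts6: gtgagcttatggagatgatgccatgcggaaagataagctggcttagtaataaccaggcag
Its values were -3.13, -3.39 and -3.04 on the irradiated arrays and -2.33, -1.64 and -1.73 on the unirradiated arrays. Every irradiated array lay below every unirradiated one, and the gene was 2.44-fold lower (log2 change -1.28 ± 0.20 SE, limma adjusted p = 0.00197). It remained lower and past the threshold under all 20 other processing choices, with log2 changes between -1.57 and -0.87. Its partner in function, Adamts10, had a log2 change of 0.11 and did not pass.

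Of the remaining ADAMTS enzymes, 3 rose. Adamts7, which cuts cartilage oligomeric matrix protein, had -2.29, -2.48 and -2.67 on the irradiated arrays and -3.58, -3.57 and -3.58 on the unirradiated arrays (2.14-fold higher, log2 change 1.10 ± 0.11 SE, limma adjusted p = 0.000319). Adamts13, which cuts von Willebrand factor in plasma, was 1.97-fold higher and Adamts16 2.06-fold. Vwf, the gene of that factor, had a log2 change of 0.26 and did not pass (limma adjusted p = 0.231). Adamts12 (0.33), Adamts17 (-0.02) and Adamts18 (-0.27) did not pass, and Adamts19 was well above background on none of the arrays.

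On chromosome 9 the genes Mmp13, Mmp12, Mmp1b, Mmp3, Mmp1a, Mmp10, Mmp27, Mmp20 and Mmp7 lie side by side in this order, with 1 coding gene between Mmp10 and Mmp27 and none elsewhere. Calls differed along the cluster. Mmp13, Mmp3, Mmp27 and Mmp7 rose by log2 changes between 1.51 and 4.56, while Mmp12 had -0.24 and the other 4 were not tested. Many promoters of this cluster are known to hold a site for AP-1, the dimer of Fos and Jun proteins that cytokines and stress switch on. The 9 promoters are shown from 110 bases before to 10 after the start of transcription in RefSeq's GRCm38.p6, each 5′ to 3′ in the direction of transcription, with the AP-1 letters TGANTCA in capitals. Mmp13 lies at chr9:7272404-7272523 and Mmp7 at chr9:7691980-7692099, both on the plus strand, and Mmp1b is the member on the minus strand.
Mmp13: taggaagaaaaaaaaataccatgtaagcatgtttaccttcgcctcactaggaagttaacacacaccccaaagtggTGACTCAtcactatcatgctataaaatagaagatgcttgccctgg
Mmp12: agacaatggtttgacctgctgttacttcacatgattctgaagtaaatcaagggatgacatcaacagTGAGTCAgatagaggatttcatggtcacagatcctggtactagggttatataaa
Mmp1b: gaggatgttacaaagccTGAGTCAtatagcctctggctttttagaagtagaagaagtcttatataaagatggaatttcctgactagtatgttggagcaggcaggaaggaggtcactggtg
Mmp3: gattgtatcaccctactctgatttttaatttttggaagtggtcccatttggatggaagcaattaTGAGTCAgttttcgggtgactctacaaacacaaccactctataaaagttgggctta
Mmp1a: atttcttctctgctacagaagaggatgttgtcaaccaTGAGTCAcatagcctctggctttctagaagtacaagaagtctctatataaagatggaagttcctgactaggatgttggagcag
Mmp10: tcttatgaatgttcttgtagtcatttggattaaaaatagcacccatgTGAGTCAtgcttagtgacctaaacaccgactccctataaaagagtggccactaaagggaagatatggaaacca
Mmp27: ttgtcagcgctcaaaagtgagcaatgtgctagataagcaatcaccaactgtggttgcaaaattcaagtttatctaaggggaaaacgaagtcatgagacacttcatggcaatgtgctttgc
Mmp20: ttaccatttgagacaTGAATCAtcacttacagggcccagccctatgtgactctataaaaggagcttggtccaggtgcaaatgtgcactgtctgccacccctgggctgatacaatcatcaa
Mmp7: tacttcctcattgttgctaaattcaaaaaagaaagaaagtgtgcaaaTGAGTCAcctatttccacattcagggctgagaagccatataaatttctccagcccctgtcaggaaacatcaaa
The letters were found in 8 of the 9 windows shown, on either strand since the motif reads the same both ways. They begin between 35 bases (Mmp13) and 95 bases (Mmp20) before the start. They were absent from the window of Mmp27, which was 7.59-fold higher, and present in those of Mmp12, Mmp1a, Mmp1b, Mmp10 and Mmp20, for which no higher call was made. In Mmp3 the motif begins 46 bases before the start and in Mmp12 44. Mmp12 and Mmp7 each have another annotated start, whose window did not hold the motif. For both genes the window shown was chosen because it held the motif. In windows from 250 bases before to 50 after the start, the motif was in 7.81% of 32851 promoters of all genes and in 8 of 34 member windows, which belong to 31 members, and all 8 lie in this cluster. By outcome it was in 3 of 18 members that were higher, 1 of 7 that did not pass and 4 of 6 that were not tested. A match is a description of the letters only.

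**Figure D4:**
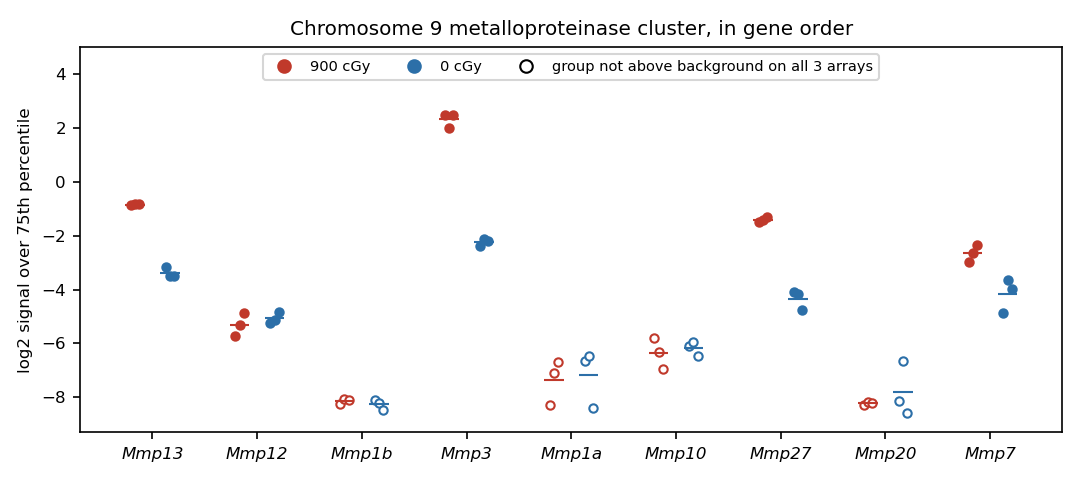
Log2 signal over the 75th percentile on each array for the 9 MMP genes of the chromosome 9 cluster, in gene order, with 900 cGy left of 0 cGy and the mean of 3 pools as a line. Open points belong to groups that were not well above background on all 3 arrays. Mmp13, Mmp3, Mmp27 and Mmp7 have irradiated arrays above the unirradiated ones, and Mmp12 between Mmp13 and Mmp3 does not.

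Genes known to induce MMP transcription moved in both directions. Of 15 listed inducers and transcription factors, 6 were higher, 5 lower and 4 did not pass, with a median log2 change of 0.31. The highest were Il1b, the cytokine interleukin-1 beta (2.14), and the AP-1 subunits Jun (1.47) and Fosl2 (1.21). The lowest were the cytokine Tnf (-1.01), Ets1 (-0.92) and the AP-1 subunit Jund (-0.73).

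Activators and inhibitors outside the TIMP family were mostly higher. Of 19 listed, 17 were tested, with 13 higher, 2 lower, 2 not past and a median of 1.40. The highest were Lrp1, the endocytic receptor that clears MMPs and TIMPs (2.07), Pcolce2, a procollagen proteinase enhancer (2.05), and Plat, a plasminogen activator (1.75). The lower ones were Serpinf2, the plasmin inhibitor (-1.58), and Plaur, the urokinase receptor (-0.99), and the smallest rise was that of the convertase Furin (0.45). Plg, the gene of plasminogen, was well above background on no irradiated and 1 unirradiated array.

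Of the 6 ADAMTS-like proteins, which resemble ADAMTS enzymes but lack the proteinase part, 5 were tested and 4 rose. These were Adamtsl2 (1.92), Adamtsl1 (1.90), Adamtsl5 (1.58) and Adamtsl4 (1.32), and the median of the list was 1.58. The ADAM proteinases, membrane relatives that shed cell surface proteins, had 6 higher, 2 lower and 2 not past of 10, with a median of 0.54. Adam15 (1.32), Adamdec1 (1.17) and Adam9 (1.17) rose most and Adam17 least (0.31). Adam19 was lower (-0.62), and Adam28, which is known from lymphocytes, was well above background on no irradiated array and was at least 2.51-fold lower, with means of -8.33 on the irradiated and -4.77 on the unirradiated arrays. That bound sets the unirradiated mean against the lowest signal that was well above background on each irradiated array.

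Among 24 listed matrix substrates 22 were tested, 14 rose, none fell and 8 did not pass, with a median of 0.96. The highest were the proteoglycan Dcn (2.01), the thrombospondin Thbs2 (1.72) and the fibulin Fbln1 (1.63), and the smallest rises were those of Lamc1 (0.83), Fn1 (0.84) and Col4a1 (0.86). The fibrillar collagens Col1a1, Col1a2 and Col3a1 rose by 1.21, 1.24 and 1.31, while Col5a1 did not pass (0.21) and Col2a1 was not tested. Versican (Vcan, 0.08), aggrecan (Acan, 0.21) and cartilage oligomeric matrix protein (Comp, 0.16) were also among the substrates that did not pass.

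Markers of stroma, vessels and macrophages were higher along with the members, and most neutrophil markers did not pass. In whole spleen RNA, more cells of a type and more RNA per cell cannot be told apart. All 9 measured markers of fibroblasts and reticular stroma were higher, with a summed signal between 230.2 and 238 times the 75th percentile on irradiated arrays and between 88.7 and 102.4 on unirradiated arrays. All 6 markers of smooth muscle and pericytes were higher (119.5 to 126.3 on irradiated, 49.41 to 69.96 on unirradiated arrays), as were 6 of 7 endothelial markers (88.29 to 95.87 on irradiated, 33.81 to 39.92 on unirradiated arrays). All 9 macrophage markers were higher, with sums between 845.9 and 890.5 on irradiated and between 245.6 and 269.1 on unirradiated arrays. Of 7 neutrophil markers 1 was higher, 1 lower and 5 did not pass, with sums between 491.4 and 561.8 on irradiated and between 423.1 and 920.8 on unirradiated arrays. The part of these cell types in the members' changes was not tested.

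Markers of B cells, T cells and red cell precursors mostly went the other way, but those of plasma cells did not. All 6 B cell markers were lower, with sums between 48.77 and 54.22 on irradiated and between 277.8 and 357.7 on unirradiated arrays. Of 6 T cell markers 5 were lower and 1, Cd4, higher, with sums between 26.34 and 26.92 on irradiated and between 54.63 and 76.28 on unirradiated arrays. All 6 erythroid markers were lower, with sums between 7.802 and 12.8 on irradiated and between 127.3 and 303.9 on unirradiated arrays, and Rhd was well above background on none of the irradiated ones. By contrast, all 4 plasma cell markers were higher (181.8 to 198.7 on irradiated, 66.74 to 87.98 on unirradiated arrays). Among 6 dendritic cell markers none was higher, 3 were lower and 3 did not pass (99.48 to 112 on irradiated, 111.9 to 125.4 on unirradiated arrays).

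Markers of tissues beside the spleen also moved with the groups. All 8 markers of exocrine pancreas were higher, with sums between 782.3 and 1055 on the irradiated arrays and 0.7598, 83.58 and 13.6 on the unirradiated arrays. All 6 adipocyte markers (65.9 to 70.5 on irradiated, 3.776 to 7.045 on unirradiated arrays) and all 5 mesothelial markers (22.48 to 26.68 on irradiated, 3.414 to 6.901 on unirradiated arrays) were higher. Among the unirradiated arrays the pancreas sum was highest in replicate 2, then replicate 3, then replicate 1. Of the 27 higher members, 5 had their unirradiated values in the same order, namely Mmp3, Mmp7, Mmp19, Adamts13 and Timp4, and the other 22 did not. This share was not counted over all genes. Some values were almost equal, as in replicates 3 and 2 for Adamts15 (-2.2567 and -2.2566). An order within the unirradiated arrays does not measure a difference between groups, so no conclusion is drawn from it. The part of these tissues in the members' changes was not tested.

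**Figure D5:**
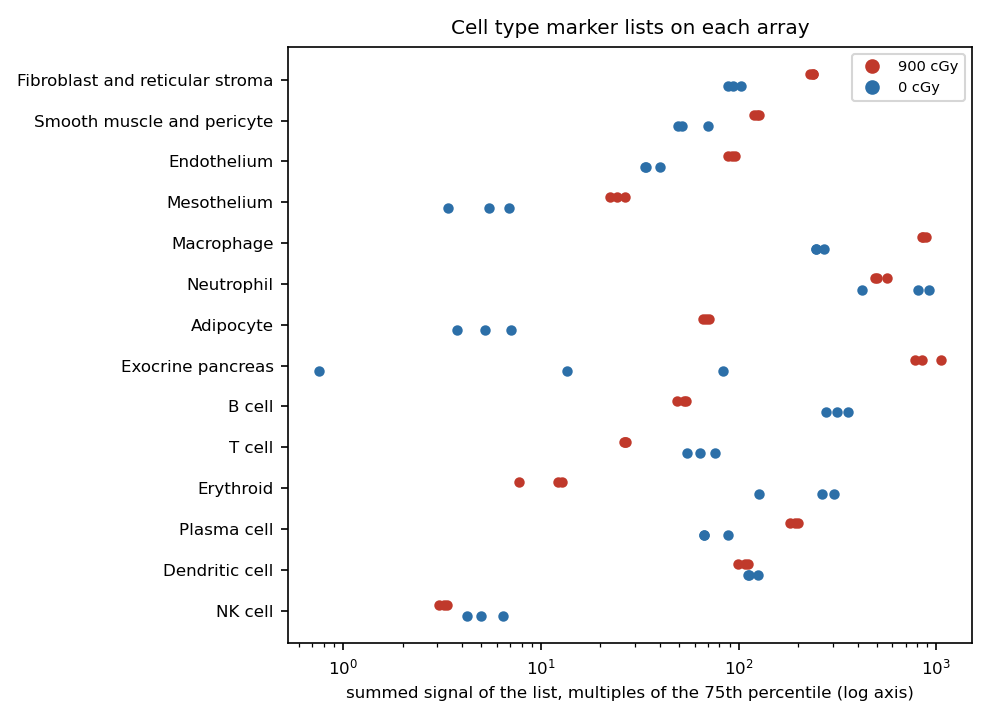
Summed signal of each cell type marker list on each array, in multiples of the array's 75th percentile on a log axis, with 900 cGy drawn above 0 cGy in each row. The irradiated arrays lie above the unirradiated ones for stroma, smooth muscle, endothelium, mesothelium, macrophages, adipocytes, exocrine pancreas and plasma cells. They lie below them for B cells, T cells, red cell precursors and NK cells. The NK list was mixed, with 1 marker higher, 2 lower and 1 not past of 4. The unirradiated arrays spread from 0.7598 to 83.58 for exocrine pancreas.

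Set against the stroma markers on the same array, the members lay on both sides. This quantity, the log2 signal of a member minus the mean log2 signal of the 9 stroma markers, was chosen after the data were seen. The stroma mean was 3.62, 3.60 and 3.56 on the irradiated arrays and 1.91, 1.79 and 2.10 on the unirradiated arrays, a difference of 1.66. Of the 36 members, 10 changed by more than the stroma mean and 26 by less. Mmp3 exceeded it by 2.90, Timp1 by 1.59, Mmp27 by 1.26, Mmp2 by 1.06 and Mmp13 by 0.88, with all irradiated arrays above all unirradiated ones. Adamts2, Adamts8, Adamts5, Adamts15, Mmp25 and Mmp19 differed from it by between -0.01 and 0.18, and their groups overlapped. The groups of Mmp7 (-0.15) and Adamts4 (-0.47) overlapped as well. The differences were negative for Timp2 (-0.21), Timp3 (-0.46), Mmp14 (-0.44), Timp4 (-0.89) and Adamts6 (-2.95), with all irradiated arrays below all unirradiated ones. With 3 arrays against 3 the exact two-sided permutation test cannot give a p below 0.1 (0.129 after Benjamini-Hochberg adjustment over the 36 members), so none of these differences passes it.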

How the data were processed

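Spleen RNA of 3 irradiated and 3 unirradiated pools was measured, and titles gave each sample's group and replicate number. Agilent Feature Extraction 10.5.1.1 read the images, per the submitters' processing notes. Per the file headers, the authors deposited spot intensity values, namely a mean intensity, a local background intensity and a processed intensity, from which background and spatial trends had been subtracted. Other deposited columns used are flags per the file headers (control, outlier, well above background, saturated). The value table that the authors deposited is in log2 units. Compared with the scanner values (slopes near 1.00) it proved to use the 75th percentile as scale and to be centred per probe, in the same direction, with column medians of -0.0252, 0.0181 and -0.00829 for irradiated and 0.0473, -0.00588 and -0.0460 for unirradiated replicates 1 to 3. It served as an alternative.

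The processed intensities were divided by each array's 75th percentile and log2-transformed, the percentile being taken over 59305 non-control spots. The percentiles were 1144, 1114 and 1182 on irradiated and 1166, 1152 and 1403 on unirradiated arrays. Between 91 and 146 outlier spots per array were left out, spots of a probe were averaged, and a gene was read by its brightest probe. Of 55681 probes, 27235 were named by accession, 3581 by symbol and 565 by synonym through a RefSeq table of GRCm38.p6, while 24300 stayed under the files' own names. Groups were compared with limma 3.58.1 (lmFit, eBayes, two-sided) in R 4.3.3, tested on simulated data, with Benjamini-Hochberg adjustment over 26639 genes. The number of arrays limits the precision, and p-values rest on the spread of pools. Alternatives were 20 other choices of background correction, normalization, scaling, probe filter, probe summary, variance model, blocks and left-out replicates.

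The members, lists and tests were chosen with earlier results of these data known. Per-array values were given for the TIMPs, for the 8 Mmp and 8 Adamts members past the threshold with the largest change in each direction, and for members whose groups or probes disagreed. In each list of other genes the 3 highest and 3 lowest changes past the threshold were named, and other genes named were chosen after their values were seen. Promoter sequences and motif counts are from RefSeq, GRCm38.p6, where 31 of the 44 members matched. Probe positions are on mm9, as in the files.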

Additional observations from a re-analysis of the deposited data

How the results depend on the processing

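Under the 20 alternatives the number of higher members lay between 23 and 28, against 27 in the main setting. It was 23 within the slide row that held both groups, 24 with the slide row as a block and 25 with the mean of probes. The number of lower members, 1 in the main setting, was 2 with normexp and quantile normalization, quantile normalization, median scaling, an intensity trend in eBayes, the slide row as a block and slide row 1 alone, and 3 with spike-in scaling. Leaving out 1 array at a time gave between 26 and 27 higher and between 1 and 2 lower members. Over all genes tested, 24.3% to 29% were then higher and 25.4% to 33.5% lower. Those shares were 28.2% and 31.8% with the mean of probes, and 18% and 40.8% with spike-in scaling. Without the filter on dim probes 44 members were tested, and 33 were tested when all 6 arrays had to be well above background. The added lower calls included Adamts3, whose log2 change ranged from -2.88 to -0.41. Adamts8 turned to -0.205 with the mean of probes, as its probes moved in opposite directions. With the replicate block 26 members were higher and 1 lower, and Adamts14 lost its call. The deviations of same-numbered pools had correlations of 0.073, 0.117 and -0.002, against -0.136 to 0.066 for pools of unlike number. The values 0.117 and 0.073 were the highest of all, but every correlation was small. The numbers were therefore not taken to pair pools, and the replicate block served as an alternative. Leaving out irradiated replicate 1, 2 or 3 or unirradiated replicate 1 or 2 also ended the call for Adamts14. The causes of the other changes were not tested. The count of members at least 2-fold higher, 23 in the main setting, was 19 with either normexp setting and 14 with spike-in scaling. No such count was made over all genes tested. With normexp and quantile normalization Mmp27 was 3.95-fold and Mmp19 2.28-fold higher, and Mmp27 was 4.33-fold higher with the mean of probes. Dim members, such as Mmp12, Adamts18, Mmp19 and Mmp27 in unirradiated spleens, lie closer to background, which limits their folds. Both normexp settings added an offset of 50 to each signal, which by itself makes the folds of dim members smaller. The mean processed intensities in unirradiated spleens were 71.9 for Mmp19 and 61.6 for Mmp27.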
